A study of Mus musculus with 23 samples.

Results

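Aquaporins and carbonic anhydrases are the water channels and the bicarbonate-making enzymes of the colon. The 10 genes described here were chosen by symbol, 4 aquaporins (Aqp1, Aqp4, Aqp8 and Aqp11) and 6 carbonic anhydrases (Car1, Car2, Car3, Car4, Car8 and Car12), of 55450 genes in the count table. All were measured by bulk RNA sequencing of mouse colon in 23 libraries. All mice were male C57BL/6 Cdx2Apcf/w animals on a high-fat diet, in which Cre driven by the Cdx2 promoter acts on 1 floxed Apc allele, and all had received antibiotics before colonization. BF BSHlow mice carried Bacteroides fragilis 638R with the empty vector pNBU2-bla-ermGb, and BF BSHhigh mice carried the same strain with the bile salt hydrolase gene BF9343_1433 of strain NCTC9343. Normal colon was taken at 2 weeks (4 BF BSHlow and 4 BF BSHhigh libraries). Colon non-tumor tissues (4 and 4) and tumors (4 BF BSHlow and 3 BF BSHhigh) were taken at 12 weeks. Untreated mice, or mice with 2 intact Apc alleles, are not among these libraries.

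In the colon, surface cells absorb sodium chloride by exchanging sodium for protons and chloride for bicarbonate, and water follows. Carbonic anhydrases turn carbon dioxide and water into the protons and bicarbonate that these exchangers use, and aquaporins let water, and in some cases glycerol or hydrogen peroxide, cross membranes. Car1 and Car2 are cytosolic enzymes, Car3 is a cytosolic enzyme of low activity known from muscle and fat, Car4 is held on the outer face of the membrane by a lipid anchor, Car12 spans the membrane, and Car8 lacks catalytic activity. Aqp8 and Aqp4 are water channels of colonic surface cells, Aqp1 is known from the endothelium of many tissues, and Aqp11 sits in intracellular membranes. Because the samples are bulk tissue, fewer cells of a type and less RNA per cell cannot be told apart.

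Levels are given as CPM, a library's counts divided by its depth and scaled by TMM over all 23 libraries, which held 12401388 to 17903008 expected counts each (median 15874872). Nothing in the labels says which libraries came from separate animals, so p-values measure the spread between these libraries only. The 3 columns used as BF BSHhigh tumors repeat the header names of BF BSHlow tumors. They were placed in the BF BSHhigh group because a supplementary table of the study lists the same values under it, every result on BF BSHhigh tumors rests on that placement, and they are called a, b and c. Apc was lower in tumors than in non-tumor tissues in both BF BSHlow (log2 fold change -3.61) and BF BSHhigh (-2.23), and the summed CPM of 6 WNT target genes was 735 to 1497 in tumors against 77.6 to 100.1 in non-tumor tissues. The 6 epithelial markers were present in every group, with summed CPM of 12362 to 17176 at 2 weeks and 9364 to 12490 in non-tumor tissues. In tumors the sum was 4466 to 8039, so every tumor lay below every non-tumor tissue. The part of this in the tumor values below was not tested. The libraries of 2 weeks and 12 weeks stood apart in genes that mark colon position and wall layers. The summed CPM of 4 Hox genes of the distal colon was 6.09 to 95.2 at 2 weeks and 422 to 784 in non-tumor tissues, and that of 6 smooth muscle genes was 7.12 to 208 and 1518 to 8560. Sampled position and tissue layer therefore cannot be told apart from time. In tumors the sums were 216 to 405 for the Hox genes and 115 to 344 for the smooth muscle genes. Both lay below every non-tumor tissue, and the part of position and layer in the tumor values was not tested.

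**Figure D1:**
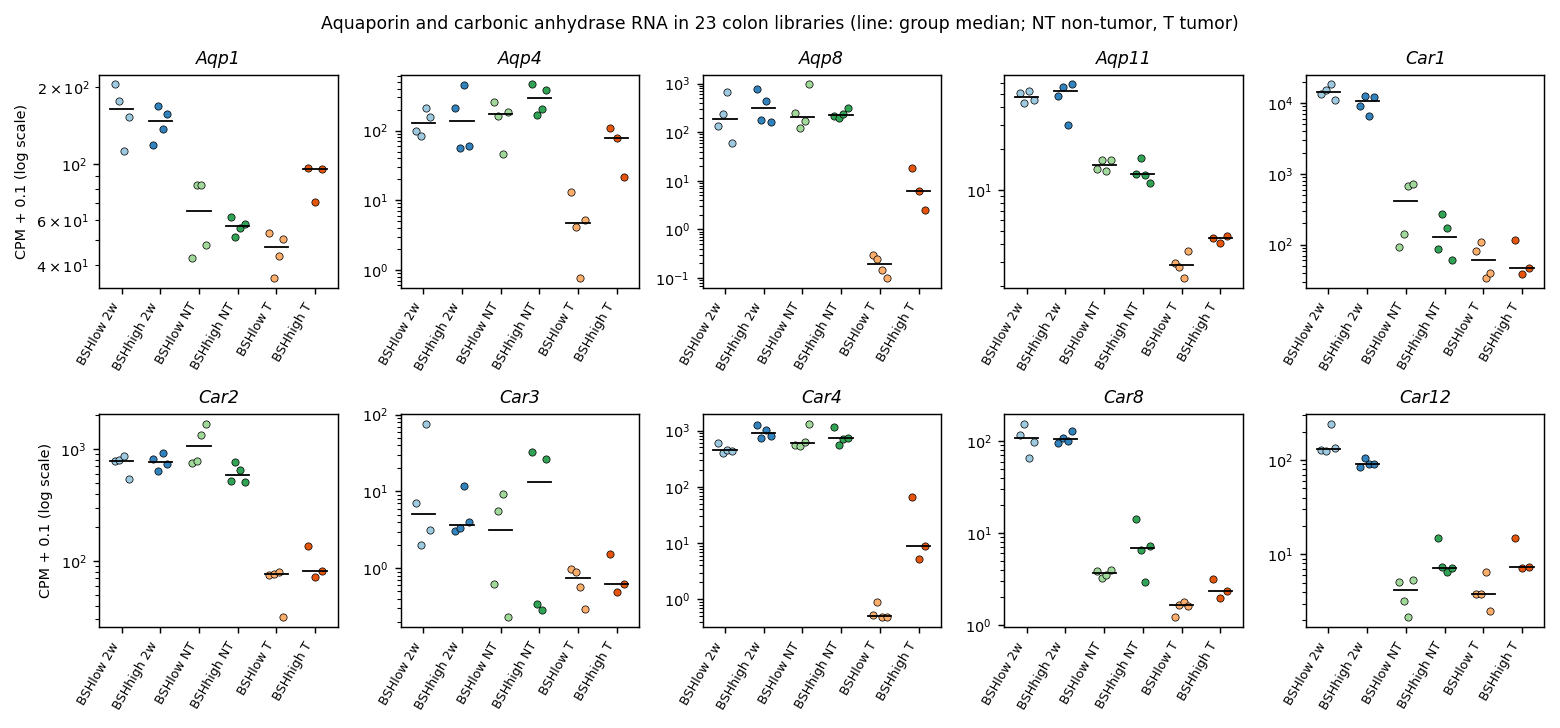
Each panel shows 1 gene, with CPM + 0.1 on a log scale on the y axis and the 6 groups on the x axis (2w, normal colon at 2 weeks; NT, non-tumor tissue at 12 weeks; T, tumor). Each point is a library and each line a group median; Aqp8 and Car4 are lowest in BF BSHlow tumors, at 0 to 0.193 and 0.378 to 0.809 CPM, and Car1 is highest at 2 weeks, at 6657 to 18480 CPM.

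All 10 genes were detected in every group and passed the filter on low counts in all 8 comparisons. None shares exon bases with another gene on either strand in GENCODE M21 (GRCm38). Car1 (chromosome 3, 14766216 to 14808368, - strand), Car3 (14863512 to 14872523, + strand) and Car2 (14886273 to 14900770, + strand) are neighbours in a carbonic anhydrase cluster that also holds Car13. Set on a common scale per length (CPM per kb of exon), mean levels at 2 weeks ran in BF BSHlow from 11650 ± 2539 (SD, n = 4) for Car1 down to 5.07 ± 0.485 for Aqp11, and in BF BSHhigh from 8146 ± 2259 for Car1 down to 1.91 ± 1.49 for Car3. Car1 stood first at 2 weeks in both groups, ahead of Car2, Car4 and Aqp8. In BF BSHlow non-tumor tissues Car2 (470 ± 186 CPM per kb), Car4 (389 ± 195), Car1 (324 ± 267) and Aqp8 (238 ± 252) came first, and neighbours in this order differed by less than their SDs. In BF BSHlow tumors Aqp8 was last, at 0.0620 ± 0.0566 CPM per kb. In BF BSHhigh tumors 5 genes stood above it, and it was at 5.65 ± 5.31 (n = 3), while Car1 (53.4 ± 33.8) and Car2 (39.7 ± 14.5) led. Under TMM, 8 of the 10 genes had their highest mean in a 2-week group, and 6 did by library size alone.

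The comparison of tumors with non-tumor tissues asked how these genes stand in the tumors of each colonization group. In BF BSHlow mice 7 of the 10 genes were lower in tumors and none was higher. A gene counts as called where edgeR's quasi-likelihood test gave an adjusted p under 0.05 and the log2 fold change was over 1 in size. Of all 15179 genes tested 17.6% were called lower and 16.1% higher. In BF BSHhigh mice 6 of the 10 were lower and none higher, against 15% and 14.6% of 15653 genes. The median log2 fold change over the 10 genes was -2.66 in BF BSHlow and -1.91 in BF BSHhigh, against 0.05 and 0.04 over all genes tested. The members called lower in both were Aqp4, Aqp8, Aqp11, Car2, Car4 and Car8, and Car1 was called in BF BSHlow alone. The difference between the groups was tested gene by gene as an interaction, given below.

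Aqp8 had the widest fall in BF BSHlow. It measured 245, 119.5, 173 and 970.3 CPM in the BF BSHlow non-tumor tissues and 0.193, 0.152, 0.0472 and 0 CPM in the BF BSHlow tumors, which is 8 counts in all over the 4 tumors. The 0 in replicate 4 allows up to 3 counts in that library. The groups were far apart (log2 fold change -11.84, SE 1.12, adjusted p = 2.83e-05), and the ratio of depth-scaled counts was 3870-fold lower in tumors, with a counting interval of 1964 to 8965 that leaves out the spread between libraries. In BF BSHhigh mice Aqp8 fell from 215, 192, 242 and 322 CPM to 18.4, 5.97 and 2.41 (log2 fold change -4.78, SE 0.65, adjusted p = 0.000458).

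Car4 fell almost as far in BF BSHlow and slightly farther than Aqp8 in BF BSHhigh. It measured 560.3, 524, 637 and 1333 CPM in BF BSHlow non-tumor tissues and 0.434, 0.809, 0.378 and 0.387 CPM in the tumors (log2 fold change -10.57, SE 0.51, adjusted p = 1.1e-06). In BF BSHhigh mice it fell from 1159, 548, 700.1 and 752 CPM to 64.7, 5.17 and 8.65 CPM (log2 fold change -4.93, SE 0.93, adjusted p = 0.00235). Tumor a of the BF BSHhigh group was the highest of the 7 tumors for both Aqp8 and Car4.

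Over the 23 libraries Aqp8 and Car4 had the highest Pearson correlation of log2 CPM of any pair of the 10 genes (0.98, a description over libraries that share groups and depth). Their promoters are shown because these 2 genes fell farthest in tumors, and they lie before the start of each gene (RefSeq sequence, GRCm38.p6), that of Car4 ending short of the GENCODE start given here. Aqp8 lies on chromosome 7 (123462291 to 123468004, + strand) and its promoter on chr7:123462044-123462290. Car4 lies on chromosome 11 (84957786 to 84966044, + strand) and its promoter on chr11:84957504-84957753.
Aqp8: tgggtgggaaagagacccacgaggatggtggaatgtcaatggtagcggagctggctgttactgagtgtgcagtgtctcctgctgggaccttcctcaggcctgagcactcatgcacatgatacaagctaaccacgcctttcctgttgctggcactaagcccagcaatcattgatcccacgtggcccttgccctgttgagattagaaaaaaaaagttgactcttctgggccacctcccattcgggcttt
Car4: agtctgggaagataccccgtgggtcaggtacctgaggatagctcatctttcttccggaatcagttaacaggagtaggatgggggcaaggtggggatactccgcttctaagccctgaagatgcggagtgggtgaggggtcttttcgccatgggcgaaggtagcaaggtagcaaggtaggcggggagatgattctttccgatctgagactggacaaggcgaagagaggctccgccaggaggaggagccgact
Capitals would mark 4 runs of letters, searched on both strands: TATAAA (the TATA box), TTTATNG (as in CDX2 sites), CTTTGAT (as in TCF7L2 sites) and CAAAGTCC (as in HNF4A sites). Neither window holds any of them, nor do the windows of Aqp1, Aqp11 and Car12, the other 3 genes matched. In windows of 250 bases, 12.4%, 9.81%, 3.21% and 1.2% of 32851 promoters hold these runs.

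Car2, the fast cytosolic enzyme, stayed measurable in tumors. It fell from 749, 789, 1323 and 1689 CPM to 75.6, 75.8, 78.9 and 31.2 CPM in BF BSHlow (log2 fold change -4.13, SE 0.40, adjusted p = 3.31e-05). In BF BSHhigh it fell from 521, 764, 653 and 505 CPM to 136, 71.8 and 80.4 CPM (log2 fold change -2.67, SE 0.27, adjusted p = 0.000119). No tumor reached the lowest non-tumor tissue in either group.

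Aqp4, a basolateral water channel, measured 259, 163, 46.2 and 184 CPM in BF BSHlow non-tumor tissues and 12.9, 4.09, 0.661 and 5.18 CPM in the tumors (log2 fold change -4.81, SE 0.81, adjusted p = 0.000819). In BF BSHhigh it fell from 462, 165, 203 and 378 CPM to 107, 79.0 and 21.3 CPM (log2 fold change -2.13, SE 0.58, adjusted p = 0.0129). Aqp11 fell from 13.6 to 16.6 CPM to 2.17 to 3.48 CPM in BF BSHlow (log2 fold change -2.43, SE 0.20, adjusted p = 1.29e-05). It fell from 11.1 to 17.1 CPM to 3.98 to 4.49 CPM in BF BSHhigh (log2 fold change -1.66, SE 0.19, adjusted p = 0.000193).

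Car8, the family member without enzyme activity, was low in both tissues. It fell from 3.12 to 3.82 CPM to 1.11 to 1.70 CPM in BF BSHlow (log2 fold change -1.26, adjusted p = 0.00153). In BF BSHhigh non-tumor tissue it measured 14.1, 6.45, 2.82 and 7.13 CPM against 3.06, 1.86 and 2.22 CPM in tumors, with overlap (log2 fold change -1.69, SE 0.50, adjusted p = 0.0199). That call was lost without tumor b (adjusted p = 0.0721) or tumor c (0.0606) and in limma-voom (0.0502).

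Car1 fell in BF BSHlow tumors, from 93.0, 141, 673 and 709.6 CPM to 80.6, 108, 33.4 and 39.6 CPM, and the groups overlapped (log2 fold change -2.64, SE 0.72, adjusted p = 0.0108). That call was lost when same-numbered libraries were fitted as a block. In BF BSHhigh Car1 measured 86.2, 275, 170.4 and 59.6 CPM in non-tumor tissues and 115, 38.5 and 46.3 CPM in tumors and was not called (log2 fold change -1.16, SE 0.58, adjusted p = 0.119). Without tumor a it was called there (-1.80, adjusted p = 0.0354).

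Aqp1, Car3 and Car12 were called in neither group. Aqp1 measured 61.9, 51.4, 56.1 and 57.9 CPM in BF BSHhigh non-tumor tissues and 96.1, 70.7 and 95.5 CPM in tumors, which lay above them all. Its adjusted p was 0.00298 at a log2 fold change of 0.62 (SE 0.12), under the fold threshold. In BF BSHlow the log2 fold change of Aqp1 was -0.47 (SE 0.24, adjusted p = 0.117). The summed CPM of 6 endothelial genes was 184 to 220 in tumors and 56.6 to 124 in non-tumor tissues, and their part in the Aqp1 values was not tested. Car12 stood at 2.42 to 6.42 CPM in BF BSHlow tumors and 2.04 to 5.25 CPM in non-tumor tissues, with a 95% interval of the log2 difference from -0.69 to 0.84. Car3 had log2 fold changes of -2.68 (SE 1.07, adjusted p = 0.0548) in BF BSHlow and -4.26 (SE 1.69, adjusted p = 0.0581) in BF BSHhigh. DESeq2 called both (adjusted p = 0.0135 and 0.0171). EdgeR called Car3 in BF BSHhigh without the filter (adjusted p = 0.0411), with all libraries in 1 fit (0.0311) and without non-tumor replicate 2 (0.0253) or 3 (0.0216), and in BF BSHlow without non-tumor replicate 1 (0.0338) or 4 (0.0134).

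**Figure D2:**
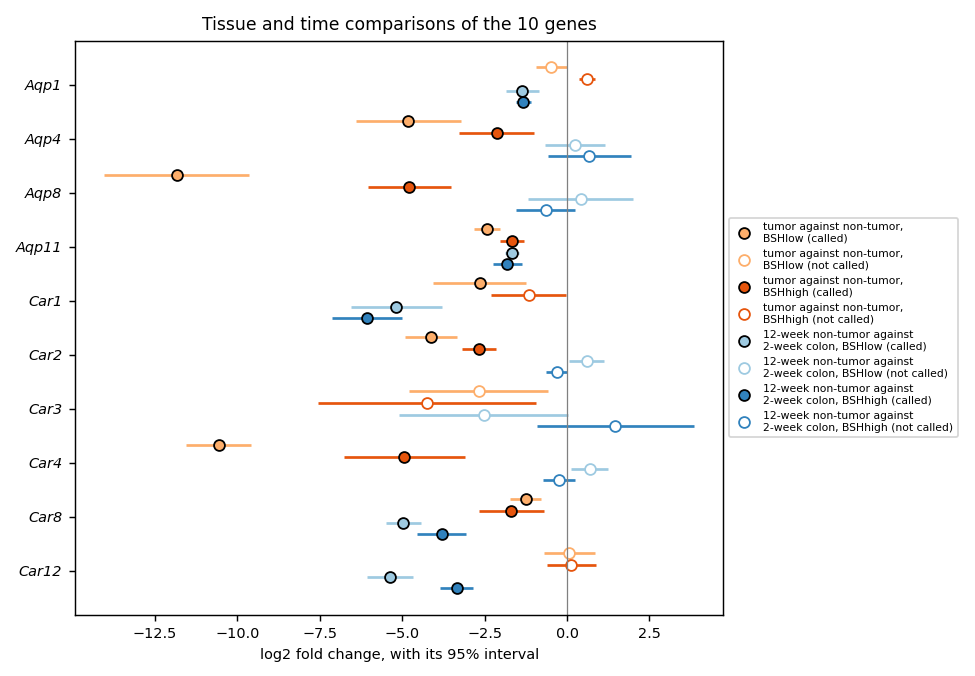
For each gene (y axis) the x axis gives the log2 fold change, with its 95% interval as a bar; orange points compare tumors with non-tumor tissues and blue points 12-week non-tumor tissue with 2-week normal colon, in the pale shade for BF BSHlow and the dark shade for BF BSHhigh. Filled points were called; Aqp8 (-11.84) and Car4 (-10.57) stand farthest left for tumors in BF BSHlow, and Car1, Car8 and Car12 for time.

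The comparison of BF BSHhigh with BF BSHlow tumors asked whether the bacterial enzyme changed these genes in tumors. Of the 10 genes only Aqp8 was called, and it was higher in BF BSHhigh tumors. Of 15325 genes tested, 0.463% were called higher and 0.0131% lower. All 10 log2 fold changes were above 0, with a median of 0.79 against -0.03 over all genes tested. This comparison shares its tumors with both tumor against non-tumor comparisons.

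Aqp8 measured 18.4, 5.97 and 2.41 CPM in the BF BSHhigh tumors and at most 0.193 CPM in the 4 BF BSHlow tumors (log2 fold change 6.40, SE 0.92, adjusted p = 0.0406). The counts were 541 over 3 tumors and 8 over 4, a depth-scaled ratio of 88.3 with a counting interval of 44.5 to 206. The highest BF BSHhigh tumor stayed under the lowest non-tumor tissue of either group (119.5 CPM). The call was lost when any library but tumor c was left out, with log2 fold changes of 5.32 to 6.96 and adjusted p up to 0.115, and in limma-voom (adjusted p = 0.145).

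Car4 was likewise higher in all BF BSHhigh tumors, with 64.7, 5.17 and 8.65 CPM in BF BSHhigh tumors against 0.378 to 0.809 CPM (log2 fold change 5.67, SE 0.95), and its adjusted p of 0.0535 missed the threshold. DESeq2 called it (adjusted p = 7.89e-07), as did edgeR without the filter on low counts (0.0105), with all libraries in 1 fit (3.16e-05) and without tumor c (0.0271). Aqp4, at 107, 79.0 and 21.3 CPM against 0.661 to 12.9 CPM, also lay above without passing (log2 fold change 3.55, SE 0.83, adjusted p = 0.102), and DESeq2 called it (0.0108). Aqp1 lay above too, at 70.7 to 96.1 CPM against 35.4 to 53.3 CPM (log2 fold change 0.91, SE 0.18, adjusted p = 0.0643).

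The ranges of Aqp11, Car8 and Car12 did not overlap either, all above in BF BSHhigh. Their log2 fold changes were 0.59 (adjusted p = 0.357), 0.67 (0.404) and 1.24 (0.223). The share of all genes without overlap between these tumors was not counted. Lack of overlap alone therefore does not set apart these genes, or Aqp8, Car4, Aqp4 and Aqp1. In edgeR's test 1946 of 15325 genes, 6 members among them, had an unadjusted p under 0.05. Car1, Car2 and Car3 overlapped. Car1 differed by a log2 fold change of 0.00 with a 95% interval from -0.98 to 0.99, Car2 by 0.54 (-0.13 to 1.20) and Car3 by 0.39 (-0.85 to 1.64).

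Genes of differentiated colonocytes, summed, were also higher in each BF BSHhigh tumor than in any BF BSHlow tumor. The summed CPM of 6 such genes (Krt20, Guca2a, Slc26a3, Ceacam20, Muc3 and Cyp2c55) was 956, 324 and 154 in tumors a, b and c, and 17.1 to 39.3 in BF BSHlow tumors. It was 2621 to 6127 in non-tumor tissues. For 5 goblet cell genes the sums were 489 to 4215 and 48.8 to 108 in the tumors of BF BSHhigh and BF BSHlow. None of these genes was at 0 throughout a group. A list of 6 squamous epithelial genes went the other way, at 34.0 to 51.9 against 72.2 to 171 CPM. The part of cell makeup in the Aqp8, Car4 and Aqp4 values was not tested.

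**Figure D3:**
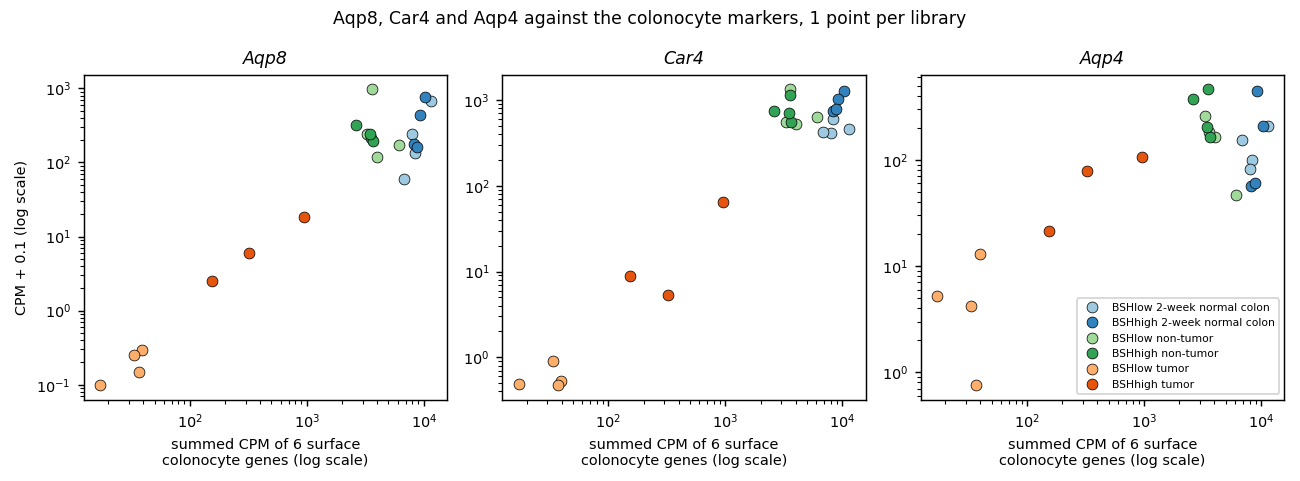
CPM + 0.1 of Aqp8, Car4 and Aqp4 (y axis, log scale) is plotted against the summed CPM of 6 surface colonocyte genes (x axis, log scale), 1 point per library and 1 color per group. The BF BSHhigh tumors, with sums of 154 to 956, lie between the BF BSHlow tumors (17.1 to 39.3) and the non-tumor tissues (2621 to 6127) on the x axis, and on the y axis for Aqp8 and Car4; for Aqp4, tumors at 79.0 and 107 CPM lie above the lowest non-tumor tissue (46.2).

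The interaction of tissue and BSH, fitted on the 15 libraries of 12 weeks, tested whether the BSH difference was the same in tumors and non-tumor tissues. It was called for Aqp8 and Car4 of the 10 genes, both with a higher ratio of BF BSHhigh to BF BSHlow in tumors. Of 16454 genes, 0.972% were called higher and 0.00608% lower. The interaction was 7.05 log2 units for Aqp8 (SE 1.35, adjusted p = 0.0227) and 5.62 for Car4 (SE 1.02, adjusted p = 0.0183). For Aqp4 it was 2.67 (SE 0.99, adjusted p = 0.344), for Car2 1.45 (SE 0.48, 0.253) and for Aqp1 1.09 (SE 0.30, 0.133). The other 5 genes had adjusted p of 0.243 or more. Leaving out 1 library ended the Aqp8 call in 6 of 15 fits, those without BF BSHhigh tumor a, BF BSHlow tumor 2, 3 or 4, or BF BSHhigh non-tumor replicate 1 or 3 (5.97 to 7.30 log2 units, adjusted p up to 0.0696), while Car4 stayed called in all 15 (adjusted p up to 0.0497). Limma-voom called neither Aqp8 (adjusted p = 0.613) nor Car4 (0.427), and DESeq2 called both and Aqp1 (1.07, adjusted p = 0.0305).

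In non-tumor tissues at 12 weeks none of the 10 genes was called between BF BSHhigh and BF BSHlow. EdgeR called 0% of 14933 genes higher and 0% lower, with 1377 genes, 3 of the 10 among them, at an unadjusted p under 0.05. DESeq2 called 53 genes and limma-voom 0, with none of the 10 in either. The 3 genes were Car2, Car8 and Car12. Car12, the membrane-spanning enzyme, was 14.7, 7.20, 6.38 and 7.05 CPM in BF BSHhigh and 4.93, 3.12, 2.04 and 5.25 CPM in BF BSHlow, without overlap (log2 fold change 1.21, SE 0.38, adjusted p = 0.408). Replicate 1 of BF BSHhigh was the highest there for Car12 and, at 14.1 CPM, for Car8 (log2 fold change 1.12, SE 0.42, adjusted p = 0.486). Car2 was 1.86-fold lower in BF BSHhigh, with overlapping ranges (adjusted p = 0.407). For Car4 the 95% interval of the log2 difference ran from -0.60 to 0.71, and for Aqp8 from -1.80 to 0.53.

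At 2 weeks none of the 10 genes was called by edgeR, which called 0.00727% of 13752 genes higher (1 gene) and 0% lower, with 935 genes, 2 of the 10 among them, at an unadjusted p under 0.05. Car4 was 1279.9, 742, 1029 and 787 CPM in BF BSHhigh and 596, 407, 459.9 and 425 CPM in BF BSHlow. The 4 BF BSHhigh libraries lay above the others (2.02-fold, log2 fold change 1.01, SE 0.20, adjusted p = 0.34). DESeq2 called Car4 (adjusted p = 0.000228) among 28 genes, while limma-voom called 1 gene and none of the 10. Car12 went the other way, at 84.4 to 104 CPM in BF BSHhigh and 126 to 244 CPM in BF BSHlow (log2 fold change -0.79, SE 0.21, adjusted p = 0.607). Aqp8 varied widely within both groups, at 772, 176, 441 and 164 CPM in BF BSHhigh and 133, 241, 679.8 and 59.9 CPM in BF BSHlow.

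BF BSHhigh replicates 1 and 3 held more of Hoxb13, a gene of the distal colon, at 60.8 and 58.0 CPM, than the other 6 libraries of 2 weeks (1.49 to 9.37). These 2 libraries were the highest of their group for Car4, Aqp8 and Aqp4 and the lowest for Car1. Leaving them out, an alternative chosen after seeing the data, was bound to lower the fold changes of Car4, Aqp8 and Aqp4. The result therefore tests nothing about position. Without them the log2 fold change of Car4 was 0.68 (adjusted p = 0.494), and those of Aqp8 (-0.74) and Aqp4 (-1.24) turned from 0.46 and 0.49.

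**Figure D4:**
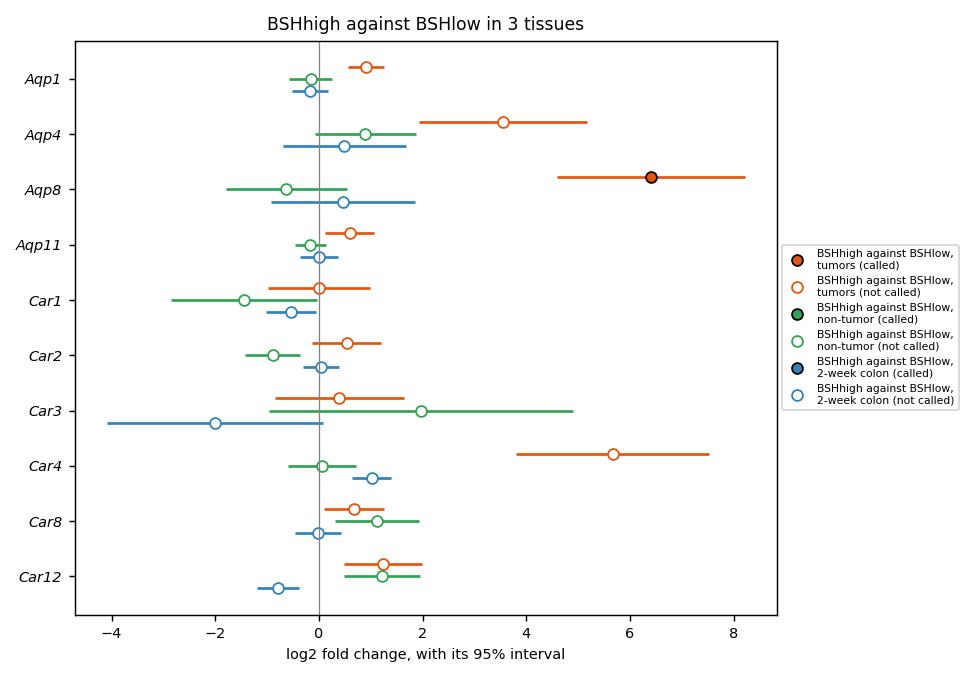
For each gene (y axis) the x axis gives the log2 fold change of BF BSHhigh against BF BSHlow with its 95% interval as a bar, in tumors (orange), non-tumor tissues (green) and 2-week normal colon (blue). Aqp8 in tumors (6.40) is the only filled, called point, with Car4 (5.67) and Aqp4 (3.55) next to it on the right.

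The comparison of 12-week non-tumor tissue with 2-week normal colon sets tissue outside tumors at the 2 times side by side. Sampled position and tissue layer differed along with time, so "over time" names this comparison and not an effect of time alone. It called the same 5 genes lower in both groups, Aqp1, Aqp11, Car1, Car8 and Car12, and none higher. In BF BSHlow 7.59% of 14555 genes were called lower and 15.1% higher, and in BF BSHhigh 7.34% of 14638 and 15.9%. In BF BSHlow the median log2 fold change over the 10 genes was -1.51 and in BF BSHhigh -0.99, against -0.02 and 0.02 over all genes tested.

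Car1, the colon's abundant cytosolic enzyme, was 13576, 15180.2, 18479.8 and 10899.7 CPM at 2 weeks in BF BSHlow and 9124, 12665, 6657 and 12218 CPM in BF BSHhigh. At 12 weeks no non-tumor tissue was above 709.6 CPM, a fold change of 36.4 in BF BSHlow (log2 -5.18, SE 0.70, adjusted p = 0.000448) and 67.2 in BF BSHhigh (log2 -6.07, SE 0.54, adjusted p = 4.38e-05). Car1 is also an enzyme of red blood cells. The summed CPM of 6 erythroid genes was 22.8 to 113 at 2 weeks and 122 to 2453 in non-tumor tissues, and the part of blood in the Car1 values was not tested. RSEM gave Car1 counts that were not whole in 9 of the 23 libraries, so some of its reads were shared with other genes.

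Car12 measured 129, 126, 244 and 133 CPM at 2 weeks in BF BSHlow and 4.93, 3.12, 2.04 and 5.25 CPM at 12 weeks (log2 fold change -5.38, SE 0.35, adjusted p = 9.95e-06). In BF BSHhigh it fell from 84.4, 104, 90.7 and 90.8 CPM to 14.7, 7.20, 6.38 and 7.05 CPM (-3.35, SE 0.25, adjusted p = 2.16e-05). Car8 fell from 118, 156, 66.0 and 98.2 CPM to 3.74, 3.12, 3.39 and 3.82 CPM in BF BSHlow (-4.97, SE 0.27, adjusted p = 4.41e-06), and by 3.80 log2 units in BF BSHhigh (SE 0.38, adjusted p = 7.3e-05). Over the 23 libraries these 3 carbonic anhydrases had pairwise correlations of log2 CPM of 0.89 to 0.94.

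Aqp11 fell by 1.67 (SE 0.11) and 1.81 (SE 0.22) log2 units, from 42.7 to 52.3 and 29.5 to 59.0 CPM. Aqp1 fell by 1.35 (SE 0.26) and 1.32 (SE 0.11), from 112 to 206 and 119 to 169 CPM. No non-tumor tissue reached the 2-week libraries in any of these 5 genes. The share of all genes without overlap was not counted, so this does not set the 5 apart. In edgeR's test 7475 of 14555 genes in BF BSHlow and 8420 of 14638 in BF BSHhigh had an unadjusted p under 0.05. The endothelial genes had sums of 9.05 to 59.2 at 2 weeks and 56.6 to 124 in non-tumor tissues, and their part in the Aqp1 values was not tested.

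The genes that fell farthest in tumors were not called over time. Aqp8 had log2 fold changes of 0.42 (95% interval -1.17 to 2.01) in BF BSHlow and -0.65 (-1.56 to 0.26) in BF BSHhigh, and Car4 of 0.69 (0.11 to 1.26, adjusted p = 0.0846) and -0.25 (-0.74 to 0.24). Car2 had 0.60 (0.06 to 1.13) and -0.32 (-0.64 to 0.00), and Aqp4 0.25 and 0.68. The interval of Car2 in BF BSHlow leaves out 0 although edgeR's unadjusted p was 0.0565, because these intervals are approximate. Without BF BSHhigh 2-week replicates 1 and 3 the same 5 genes were called in BF BSHhigh, Aqp4 was called higher (2.40, adjusted p = 0.00376), and Aqp8 (0.55) and Car4 (0.07) turned sign. Those libraries were the highest of their group for Aqp4, Aqp8 and Car4, so leaving them out was bound to raise these values. Aqp4 was also called without replicate 3 alone (1.49, adjusted p = 0.0472).

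The fall of Car1, Car8 and Car12 stood beside the change in position genes. Hoxb13 was 1.49 to 60.8 CPM at 2 weeks and 371 to 559.5 CPM in non-tumor tissues. Within the 2-week BF BSHhigh group, the libraries with 60.8 and 58.0 CPM of Hoxb13 had 9124 and 6657 CPM of Car1, and those with 5.26 and 2.08 had 12665 and 12218. The 2-week BF BSHlow group did not show this order. There replicate 3 had the highest summed CPM of the distal Hox genes (26.0) and also the highest Car1 and Car12 (244 CPM). Replicate 4, with the next sum (16.1), had the lowest Car1. The part of position and of muscle in these differences was not tested.

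**Figure D5:**
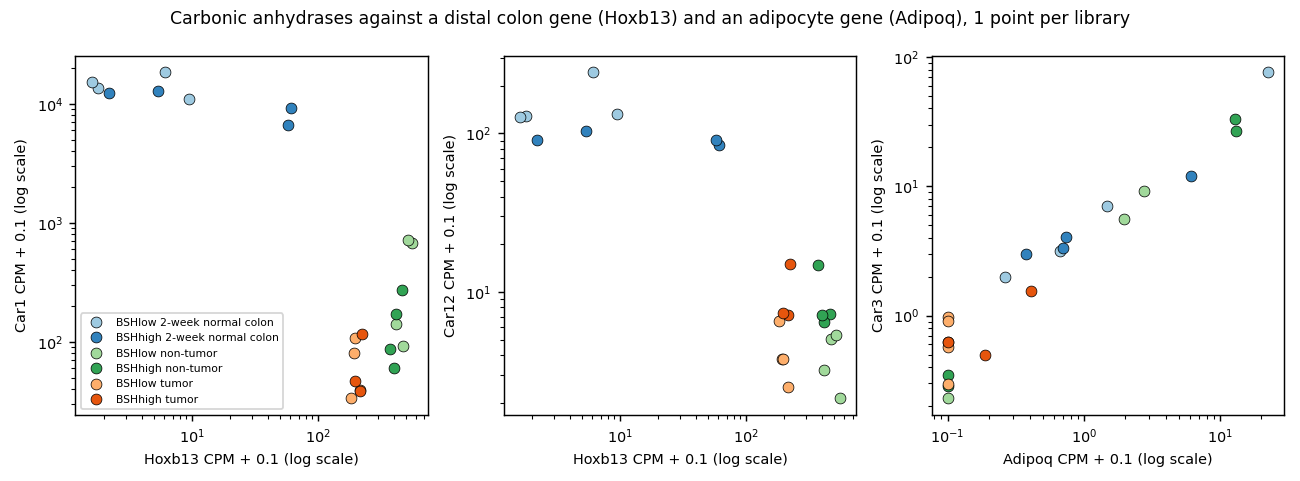
The left and middle panels plot Car1 and Car12 against Hoxb13 and the right panel plots Car3 against Adipoq, each as CPM + 0.1 on log axes with 1 point per library and 1 color per group. The 2-week libraries (Hoxb13 at most 60.8 CPM) lie apart at the upper left, and Car3 is highest where Adipoq is highest.

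Car3 varied widely within groups. At 2 weeks it was 6.94, 1.90, 76.6 and 3.08 CPM in BF BSHlow and 2.92, 3.23, 11.8 and 3.93 CPM in BF BSHhigh. In non-tumor tissues it was 0.523, 5.50, 9.16 and 0.130 CPM and 32.9, 0.248, 0.184 and 26.5 CPM. In fits of only the groups compared, with the filter and no library left out, edgeR called it in no comparison. Adipoq, the adipocyte hormone adiponectin, was the gene most like it (Pearson 0.967 over 23 libraries), followed by Cfd (0.929), another adipocyte gene. Adipoq was 22.4 CPM in the 2-week BF BSHlow library with 76.6 CPM of Car3, and 12.6 and 13.0 CPM in the BF BSHhigh non-tumor libraries with 32.9 and 26.5. It was listed at 0 in the 4 non-tumor libraries with Car3 under 1 CPM. The summed CPM of 6 adipocyte genes, Adipoq among them, was 195 in that 2-week library and 121 and 112 in those BF BSHhigh non-tumor libraries. The sum did not follow Car3 throughout. In BF BSHlow non-tumor replicates 2 and 4 it was 41.3 and 42.8, with Car3 at 5.50 and 0.130 CPM. The part of fat in the Car3 values was not tested.

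For each of the other genes, the 3 genes with the highest Pearson correlation among 14385 with a mean of at least 1 CPM were taken, over 23 libraries that share groups. Aqp8 was most like Slc26a3 (0.986), the chloride-bicarbonate exchanger of surface colonocytes, Naip1 (0.986) and Rbp2 (0.983). Car4 was most like Serpinb1a (0.990), Slc25a34 (0.990) and Hepacam2 (0.988), and Aqp4 like Ptk6 (0.944), Cd38 (0.928) and Cyp2d9 (0.923). Aqp11 was most like Entpd5, Cipc and Akr1c19 (0.988 to 0.990), and Car2 like Cox7a1, Pttg1ip and Acat1 (0.972 to 0.978). Car1 was most like Gm8909, Abcb6 and Cdc14a (0.977 to 0.979), Car8 like H2-T3, Btnl7-ps and Mal2 (0.980 to 0.984), and Car12 like Isx (0.971), H2-T3 and Lpin2 (0.964). Aqp1 had the weakest such genes, Rnase4 (0.911), Fbxw17 (0.900) and Fam78a (0.896). With Spearman in place of Pearson, 5 of the 30 genes stayed among the top 3.

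The other members of both families were mostly low. Of 8 other aquaporins, Aqp5 was called higher in tumors in BF BSHlow (3.84 against 0.263 mean CPM, log2 fold change 3.87, adjusted p = 0.0108) and in BF BSHhigh (6.44 against 0.136, 5.55, adjusted p = 0.000288). Aqp9, a channel that also passes glycerol, was called higher in BF BSHlow tumors (0.836 against 0.0339 mean CPM, 4.40, adjusted p = 0.000981), and Aqp3, another such channel, in BF BSHhigh tumors (1.35 against 0.345, 1.91, adjusted p = 0.0344). The Aqp3 call was lost when any of 5 libraries was left out (adjusted p up to 0.104). None of the other aquaporins passed the filter in the comparisons over time.

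Of 10 other carbonic anhydrases, the cytosolic Car13 was the one whose fall resembled that of the members in tissue and time. It was 42.3 to 47.6 CPM at 2 weeks in BF BSHlow, 13.9 to 25.6 in non-tumor tissues and 5.95 to 8.31 in tumors, with log2 fold changes of -1.06 over time (adjusted p = 0.00109; -0.90 and not called without non-tumor replicate 1) and -1.60 in tumors (adjusted p = 0.000238). In BF BSHhigh it was called over time alone (-1.19, adjusted p = 0.000319). Car9, a membrane enzyme induced by low oxygen, was 11.0 to 92.2 CPM over all libraries and was called in no comparison. Car7 was called lower in BF BSHhigh tumors (-1.24, adjusted p = 0.0182), a call lost without tumor b (-0.98, adjusted p = 0.0678) or tumor c (0.0556), without the filter (0.0577) and with all libraries in 1 fit (0.0704). Car7 was called higher over time in BF BSHhigh (1.69, adjusted p = 0.0043), a call lost without 2-week replicates 1 and 3 (1.27, adjusted p = 0.0567), and Car5b, the mitochondrial form, higher over time there (2.82, adjusted p = 0.00119). All group means of both lay under 2 CPM. Car15 had group means of 0.678 to 1.53 CPM and shares exon bases with another gene on its strand.

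Of 23 genes of ion transport that work beside these families, 14 were called lower and 1 higher in BF BSHlow tumors (21 tested), and 13 lower and none higher in BF BSHhigh tumors (22 tested). Of all genes tested, 17.6% were called lower and 16.1% higher in BF BSHlow, and 15% and 14.6% in BF BSHhigh. Slc26a3 fell from 446 to 886 CPM to 0 to 0.482 CPM in BF BSHlow (log2 fold change -11.36, adjusted p = 1.06e-06) and from 339 to 534 CPM to 39.2, 15.6 and 3.40 CPM in BF BSHhigh (-4.54, adjusted p = 0.00105). Slc4a4, the basolateral sodium bicarbonate carrier, fell by 3.59 and 3.44 log2 units, and Cftr, the chloride channel, by 3.17 and 2.31. Slc12a2, the basolateral chloride loader, differed by -0.09 and -0.24 and was not called.

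Slc9a3, the apical sodium-proton exchanger, was the 1 partner higher in tumors. It was 263 to 336 CPM in BF BSHlow tumors, 9.16 to 39.2 CPM in non-tumor tissues (log2 fold change 4.06, adjusted p = 0.000105) and 116 to 336 CPM at 2 weeks. In BF BSHhigh non-tumor tissues it was 196 CPM in replicate 1 and 8.25 to 19.0 in the others, and it was 277 to 369 CPM in tumors (2.45, adjusted p = 0.0756). Between BF BSHhigh and BF BSHlow tumors 0.463% of all genes were called higher. Of the partners 2 were, Slc26a3 (6.25, adjusted p = 0.0481) and Atp12a (5.92, adjusted p = 0.0406), and Atp12a is named here because of its values. Both calls were lost when any library but tumor c was left out (adjusted p up to 0.130 and 0.120) and in limma-voom (0.250 and 0.154). In the interaction of tissue and BSH 3 of 22 partners were called higher, where 0.972% of all genes were. Slc26a3 and Atp12a stayed called there in all 15 fits without 1 library (adjusted p up to 0.0219 and 0.0259). The third lost its call in 4 of them, and limma-voom called 0 genes in the interaction. Of 21 partners tested over time, 5 were called higher and 4 lower in BF BSHlow, where 15.1% and 7.59% of all genes were. In BF BSHhigh 4 of 21 were higher and 4 lower, where 15.9% and 7.34% of all genes were. No partner was called between BF BSHhigh and BF BSHlow in non-tumor tissues or at 2 weeks.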

How the data were processed

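RNA from 23 mouse colon libraries was sequenced by the authors, and the deposited table holds RSEM expected counts per gene on mm10 (GENCODE M21 gene identifiers). The labels name cutadapt, STAR, Picard and RSEM; versions are not given in the sources used here. The labels name a total RNA kit and the study's methods an mRNA kit. A blank row and 1 gene with a text cell were left out. Counts were rounded and tested with edgeR 4.0.16 (R 4.3.3; quasi-likelihood test, TMM scaling, filterByExpr, Benjamini-Hochberg over all genes tested), only the groups compared entering each fit. SEs are the log2 fold change over the square root of the F statistic. The 3 BF BSHhigh tumor columns repeat other headers and were assigned to their group only, through a supplementary table of the study that lists the same values under that group. DESeq2 1.42.0, limma-voom (limma 3.58.1), RLE scaling, no filter, all libraries in 1 fit, left-out libraries and a replicate block were alternatives. Scripts were tested on simulated data. Levels are CPM; correlations used log2 CPM with a prior count of 2.

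The 10 genes, the lists of other family members, partners and markers, and the tests were chosen with earlier results of these data known. All 10 genes are named, other family genes where called or at 1 CPM in a group mean, 5 of the partners by the rule (Atp12a, a sixth, was chosen after its values were seen), and the 3 genes most like each member. Counting intervals (95%) and count floors cover counting error only. Libraries of a group differed by more than sampling noise.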

Additional observations from a re-analysis of the deposited data

Results flagged for a closer look

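The difference between BF BSHhigh and BF BSHlow differed between tumors and non-tumor tissues for 2 genes by the interaction test, Aqp8 (7.05 log2 units, edgeR adjusted p = 0.0227) and Car4 (5.62, adjusted p = 0.0183). The Aqp8 call was lost in 6 of 15 fits that left out 1 library (adjusted p up to 0.0696), and both were lost in limma-voom (adjusted p = 0.613 and 0.427). In 8 of 50 sets of 4 libraries (a gene in a group), 1 library stood far from the other 3 by Dixon's test, where chance alone gives about 1 set in 20. Replicate 4 of the BF BSHlow non-tumor tissues was high for both Aqp8 (970.3 CPM) and Car4 (1333 CPM), and replicate 3 of BF BSHlow at 2 weeks for both Car3 (76.6 CPM) and Car12 (244 CPM). Replicate 3 of BF BSHhigh at 2 weeks was high for Car3 (11.8 CPM) and replicate 1 of the BF BSHhigh non-tumor tissues for Car12 (14.7 CPM). Among BF BSHlow tumors replicate 4 was low for Car2 (31.2 CPM) and replicate 2 was high for Car4 (0.809 CPM, 16 counts).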

How the results depend on the processing

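The count of the 10 genes called between BF BSHhigh and BF BSHlow tumors, 1 by edgeR, was 3 with DESeq2, 3 without the filter, 3 with all libraries in 1 fit, 0 with limma-voom and 0 to 2 when 1 library was left out, and the cause was not tested. At 2 weeks it was 0 by edgeR and 1 with DESeq2. The interaction count of 2 was 0 with limma-voom, 3 with DESeq2 (Aqp1 added) and 1 to 2 when 1 library was left out, Aqp8 being the gene lost. The counts for tumor against non-tumor tissues, for time and for non-tumor tissues stayed within 1.5 times under every alternative run, and RLE scaling changed no count. Whether same-numbered libraries are pairs is not settled. In no comparison did every pair of same-numbered libraries correlate above 0.1 in its deviations, but so few libraries cannot exclude pairing. In BF BSHlow the correlations between tumor and non-tumor tissue were 0.190, -0.121, 0.0072 and 0.108. The replicate block left 6 of the 7 calls for BF BSHlow tumors, Car1 losing its call (adjusted p = 0.0973), as did Aqp5 (0.0506). No paired analysis was possible because the tumor columns of BF BSHhigh carry no numbers, in the comparisons that use them.

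Sign changes touched only differences that edgeR had not called. With limma-voom, Car1 in tumors was -0.0072, Aqp11 and Car8 at 2 weeks -0.041 and 0.040, Car3 over time in BF BSHhigh -0.91 and Car12 in the interaction -0.018, all log2 units. The replicate block gave Aqp11 -0.033 and Car8 0.038 at 2 weeks. Without BF BSHhigh replicates 1 and 3, an alternative chosen after seeing the data, the 2-week values were -1.24 for Aqp4, -0.74 for Aqp8, -0.14 for Car2 and 0.11 for Car8, and those over time in BF BSHhigh 0.55 for Aqp8 and 0.074 for Car4. Leaving out 1 library at a time gave, between tumors, Car1 -0.64 to 0.35 and Car3 -0.37 to 0.72. In non-tumor tissues it gave Car4 -0.19 to 0.47 and Aqp8 -0.93 to 0.45. At 2 weeks it gave Aqp11 -0.11 to 0.18, Car8 -0.20 to 0.20, Car3 -2.72 to 0.47, Car2 -0.085 to 0.13, Aqp8 -0.13 to 1.41 and Aqp4 -0.33 to 0.80. It gave Car12 -0.24 to 0.29 and -0.31 to 0.48 in BF BSHlow and BF BSHhigh tumors against non-tumor tissues, and Car12 -0.39 to 0.40 and Car8 -0.72 to 0.043 in the interaction. Over time in BF BSHlow it gave Aqp4 -0.067 to 0.56 and Aqp8 -0.65 to 1.36. Depth limited Aqp8 in BF BSHlow tumors, with 8 counts in 4 libraries.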
